A study of Mus musculus with 50 samples.

Results

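Transcript levels in mouse neocortex were compared between animals that lacked a receptor for sphingosine 1-phosphate and wild-type animals, with both receptor knockouts pooled. The comparison used 25 of the 50 arrays in the series: 10 labelled S1P2-KO and 5 labelled S1P3-KO, which together made 15 knockout arrays, and 10 labelled wild-type. Each knockout genotype entered with a weight of 0.5, so that the pooled difference was the mean of both genotype effects. A gene was taken to move the same way when its difference from wild-type had the same sign in S1P2-KO and in S1P3-KO.

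All mice were killed at 8 weeks of age. The wild-type and S1P2-KO groups each held 5 males and 5 females, and the S1P3-KO group held 2 males and 3 females. Per the series' design text, S1P2-deficient mice had sporadic seizures at 4 to 7 weeks of age and S1P3-deficient mice had none, so seizures are not a feature that both pooled genotypes share. The same text mentions the S1P2-deficient mice at 2 places and the S1P3-deficient mice at none when it gives group sizes (10, 5 and 10), so group membership was read from the sample titles. The titles call the replicates biological, without saying how the animals were bred, and p-values measure the spread between these samples. The strain, the deleted exons and the origin of the wild-type animals are not given in the sources used here.

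Sphingosine 1-phosphate is a signalling lipid made from membrane sphingolipids, and it acts outside cells through a family of G-protein-coupled receptors. S1P2, encoded by S1pr2, and S1P3, encoded by S1pr3, each couple to several classes of G proteins and act on the cytoskeleton, calcium and gene expression. In brain, receptors of this family are found on neurons, astrocytes, microglia and blood vessels.

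Levels below are MAS5 signals (linear scale, mean ± SD), and each difference is a log2 estimate with its SE, from a limma fit over 8805 probe sets for 6511 named genes. A probe set was called when its limma p-value, adjusted by Benjamini-Hochberg over all tested probe sets, was under 0.05. Since 30.7 signal units were added before the log2 was taken, differences of dim genes are understated.

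The neocortex label was checked against layer and region markers. Mef2c, a transcription factor of cortical excitatory neurons, ran from 4633 to 8471 over the 25 neocortex arrays against a hippocampus median of 839, and Tbr1, a transcription factor of deep cortical layers, ran from 4599 to 9264 against 2552. Dsp, the desmoplakin that marks dentate granule cells, had a median of 113 in neocortex against 1247 in hippocampus. Neurod6 went the other way, at 285 to 688 in neocortex against a hippocampus median of 1275, and Slc17a7 and Rorb were not named on this array. Array medians lay between 361 and 414, and the median correlation of an array with the others lay between 0.935 and 0.958, lowest on S1P3-KO replicate 2 and wild-type replicates 3 and 4. The 3' to 5' ratio (log2) of the control probe sets of Gapdh and beta-actin, which rises as RNA degrades, was 0.30 to 0.48 on the wild-type arrays (median 0.38), 0.01 to 0.61 on those of S1P2-KO (median 0.26) and 0.21 to 0.36 on those of S1P3-KO (median 0.24).

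The pooled knockouts differed from wild-type at 18 probe sets of 17 named genes, 0.204% of those tested. Of these, 13 were higher in the knockouts (0.148%) and 5 were lower (0.0568%). Fos, an AP-1 transcription factor gene induced by neuronal activity, Gadd45b, a stress- and activity-induced regulator of DNA demethylation, the sterol pathway gene Mvd, the deubiquitinase gene Usp2 and Bcap29 fell. Fmnl1, a formin that elongates actin filaments, Sdc4, a cell surface proteoglycan of adhesion sites, and 10 further genes rose. All 18 probe sets had the same sign in both knockouts, and each had an unadjusted p under 0.05 in both.

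Neither knockout passed the adjusted threshold by itself at any probe set: limma called 0 in S1P2-KO, where 766 had an unadjusted p under 0.05, and 0 in S1P3-KO, where 914 did. In the pooled difference 969 probe sets had an unadjusted p under 0.05, 521 higher (5.92%) and 448 lower (5.09%). An unadjusted p under 0.05 with the same sign in both knockouts was found at 258 probe sets (2.93%), of which 157 were higher and 101 lower, and the 18 called ones were among them. Both knockout estimates use the same 10 wild-type arrays, so a shared sign is not independent evidence for a gene. Over all genes the median pooled difference was -0.01, with 48.0% of genes higher and 52.0% lower.

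The number of calls depended on single arrays. Leaving out wild-type replicate 1 or 2 gave 0 calls, leaving out replicate 3 gave 2, replicate 4 or 5 gave 3, and replicate 8 gave 10. Among the S1P3-KO arrays, the count was 4 without replicate 1 and 0 without replicate 5. Among the S1P2-KO arrays, it was 11 without replicate 2 or 10, 10 without replicate 3, 9 without replicate 4 or 9, 30 without replicate 6 and 35 without replicate 7. It was 0 when the 3 arrays of lowest correlation were left out together, an alternative chosen after the data were seen. All 18 differences kept their sign in each of these fits and in 40 of 40 fits in all, the main fit included. Since the 18 were chosen on these same arrays for differences large beside their SE, a kept sign is no separate evidence. Their largest adjusted p in any planned fit was 0.221. With 1 array left out, Usp2 and Lor stayed called in 22 of 25 fits, Ramp2 and Gnb1 in 10, Zdhhc14 and Zfp385a in 8. Fos, Bcap29 and Sncb stayed called in 7 and Cadm1 in 4.

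**Figure D1:**
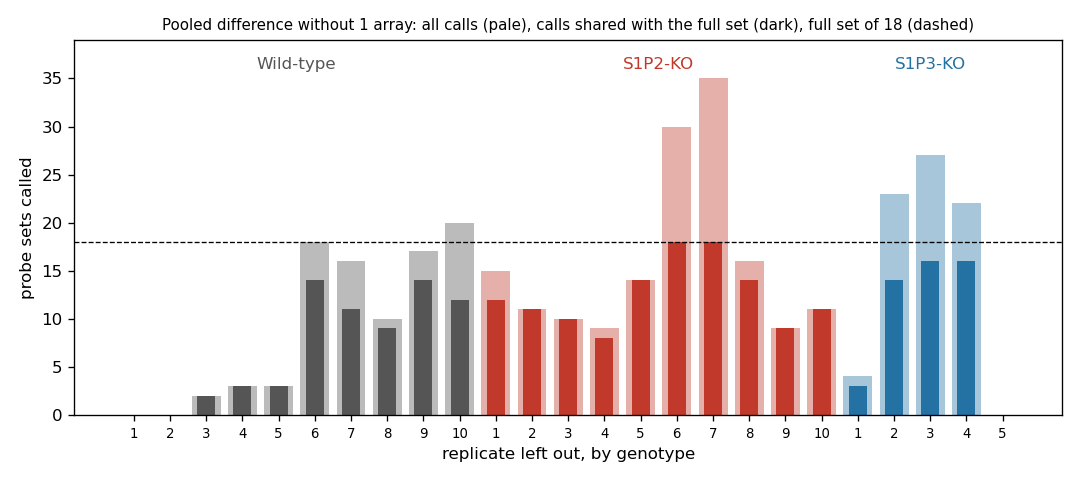
Number of probe sets called in the pooled difference (y axis) when the array named on the x axis is left out, grouped by genotype. Pale bars count all calls, dark bars those shared with the 18 calls of the full set, and the dashed line marks 18. The count runs from 0 to 35, and the 3 arrays without which it is 0 are wild-type replicates 1 and 2 and S1P3-KO replicate 5.

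Promoter windows are shown for the genes with the largest falls and rises that have one, since these are the members that moved together in both knockouts. Each window runs from 250 bases before to 50 after the RefSeq start, on build GRCm38.p6, read 5′ to 3′ along the gene. They are Fos at chr12:85473640-85473939 and Gadd45b at chr10:80929841-80930140, both on the plus strand, Fmnl1 at chr11:103170888-103171187 on the plus strand, and Sdc4 at chr2:164443139-164443438 on the minus strand. Capitals mark an E-box in Gadd45b and metal response element cores in Fmnl1 and Sdc4; the Fos window held none of the searched motifs in these exact letters.
Fos: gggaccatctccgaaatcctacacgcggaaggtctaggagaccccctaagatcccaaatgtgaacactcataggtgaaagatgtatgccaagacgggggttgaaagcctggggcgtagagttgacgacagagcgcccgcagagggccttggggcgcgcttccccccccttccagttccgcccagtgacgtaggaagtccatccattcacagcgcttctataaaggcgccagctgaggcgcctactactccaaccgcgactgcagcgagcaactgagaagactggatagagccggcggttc
Gadd45b: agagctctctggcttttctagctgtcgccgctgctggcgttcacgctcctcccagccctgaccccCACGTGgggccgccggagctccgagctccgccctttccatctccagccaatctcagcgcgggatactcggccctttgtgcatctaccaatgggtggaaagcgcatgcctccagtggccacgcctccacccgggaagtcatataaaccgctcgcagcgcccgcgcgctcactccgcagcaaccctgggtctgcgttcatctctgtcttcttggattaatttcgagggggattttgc
Fmnl1: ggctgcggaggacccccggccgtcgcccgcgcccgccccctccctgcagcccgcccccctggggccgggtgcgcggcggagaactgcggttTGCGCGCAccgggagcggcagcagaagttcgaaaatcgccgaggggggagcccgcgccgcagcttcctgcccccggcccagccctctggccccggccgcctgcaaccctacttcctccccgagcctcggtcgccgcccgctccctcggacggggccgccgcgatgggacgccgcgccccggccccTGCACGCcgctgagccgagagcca
Sdc4: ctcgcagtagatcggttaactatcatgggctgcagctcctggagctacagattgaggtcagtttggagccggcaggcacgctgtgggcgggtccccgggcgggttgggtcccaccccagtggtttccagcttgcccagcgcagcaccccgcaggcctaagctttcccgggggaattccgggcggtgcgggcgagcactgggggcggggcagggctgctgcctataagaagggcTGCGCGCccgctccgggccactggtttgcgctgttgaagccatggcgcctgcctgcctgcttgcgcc

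Windows were found for 12 of the 17 called genes, and 5 motifs were searched on both strands. A called gene counted when any of its windows matched, and Grb2 and Zfp385a had 2 windows each. The share of all is per window, so the measures are not quite alike. The cAMP response element TGACGTCA was in 0 of the 12 and in 1.79% of all 32851 windows. The AP-1 site TGANTCA, which Fos protein binds as part of a dimer, was in 2 of the 12 (Lor and Atp6v0a1) and in 7.81% of all windows. The sterol regulatory element TCACNCCAC was in 0 of the 12 and in 1.24% of all. The metal response element core, written TGCACNC or TGCGCNC, was in 2 of the 12 (Sdc4 and Fmnl1) and in 25.7% of all, and in Fmnl1 matches on both strands overlapped. The E-box CACGTG was in 1 of the 12 (Gadd45b) and in 7.15% of all. Each match describes the letters in these windows only.

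The targeted genes were examined as a check of the labels. S1pr2 signal was 672 ± 137 in wild-type, 628 ± 147 in S1P2-KO (n = 10 each) and 640.1 ± 184 in S1P3-KO (n = 5), with a pooled difference of -0.08 ± 0.13 (limma adjusted p = 0.882). S1pr3 signal was 859 ± 168, 1012 ± 199 and 729 ± 242 in the same order, with a pooled difference of -0.02 ± 0.13 (limma adjusted p = 0.98). For S1pr3 the pooled value joined estimates of opposite sign, 0.23 ± 0.14 in S1P2-KO and -0.26 ± 0.17 in S1P3-KO, and the sign of the pooled value changed with single arrays left out (-0.11 to 0.04). The 5 S1P3-KO arrays read 601, 1122, 786, 637 and 501, of which replicate 2 lay above all wild-type arrays. Neither gene was measurably lower in its own knockout. Whether either probe set lies in the deleted sequence is not known here, so every direction refers to arrays as labelled.

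The list of S1P and LPA receptors and the G protein alpha subunits they use held no call. Of its 11 tested genes 3 were higher and 8 lower, with a median of -0.05. S1pr1, the most widely expressed receptor for the lipid, differed by -0.05, and Lpar1, a receptor for lysophosphatidic acid, by 0.16. Gnai1, an inhibitory G protein subunit, was the member of smallest p, with -0.15 (limma adjusted p = 0.347).

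Among the called genes Fos had the largest pooled difference. Its signal ran from 1052 to 5739 in wild-type (median 2833, 3142 ± 1569, n = 10) and from 378 to 2539 in S1P2-KO (median 1093, 1187 ± 544, n = 10). The S1P3-KO arrays read 1331, 832, 1476, 1379 and 1974. All 15 knockout arrays lay below the wild-type median, and 6 lay below the whole wild-type range, which 2 female wild-type arrays (replicates 6 and 7, at 1052 and 1125) stretched downwards. The pooled difference was -1.16 ± 0.26 (limma adjusted p = 0.0479), a 2.24-fold fall, with -1.32 ± 0.27 in S1P2-KO and -1.0 ± 0.34 in S1P3-KO. It ran from -1.32 to -1.05 with 1 array left out and was called in 7 of those 25 fits.

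Gadd45b fell by 0.80 ± 0.16 on the log2 scale, a 1.74-fold change (limma adjusted p = 0.0376). Wild-type arrays ran from 568 to 1844 (median 1126), S1P2-KO arrays from 393 to 889 (median 601), and the S1P3-KO arrays read 720.0, 408, 735, 884 and 657. All 15 knockout arrays were below the wild-type median, and 5 were below the wild-type range. The differences were -0.89 ± 0.18 in S1P2-KO and -0.71 ± 0.22 in S1P3-KO. A second, slightly brighter probe set of Gadd45b differed by -0.29 ± 0.13 (limma adjusted p = 0.405), so the size of the fall differed between probe sets. Whether the called probe set reads Gadd45b alone was not tested.

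Immediate early genes, which neurons transcribe within minutes of firing, were mostly lower. Of 31 tested members 26 were lower and 5 higher, and Fos was the only call. At an unadjusted p under 0.05, 12 were lower and 1 higher, beside 5.09% and 5.92% of all probe sets. The list median was -0.19, with -0.30 in S1P2-KO and -0.16 in S1P3-KO, beside -0.01 over all genes. Next to Fos by p stood 2 transcription factor genes, Egr1, at -0.55 (-0.57 and -0.53 in S1P2-KO and S1P3-KO), and Klf10, at -0.59 (-0.51 and -0.66), neither of which passed (limma adjusted p = 0.0752 each). Egr2 differed by -0.89, Junb by -0.58, Dusp1 by -0.52 and Nr4a1 by -0.51. Nptx2, an activity-induced secreted pentraxin that binds AMPA receptors, went the other way, at 0.55 (0.45 in S1P2-KO and 0.64 in S1P3-KO).

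The mean log2 level of the immediate early list was 9.84 to 10.9 on wild-type arrays (median 10.5), 9.93 to 10.6 on S1P2-KO arrays (median 10.1) and 10.2 to 10.4 on S1P3-KO arrays (median 10.3). The groups overlapped, since the lowest wild-type array lay below every knockout array. The list was written with earlier results of these data in view, and its count describes these arrays.

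Mvd, the mevalonate diphosphate decarboxylase of sterol synthesis, was the called gene of cholesterol synthesis. It ran from 672 to 1128 in wild-type (928 ± 153) and from 379 to 754 in S1P2-KO (586 ± 116, n = 10 each), and the S1P3-KO arrays read 521, 442, 737, 962 and 534. Of the 15 knockout arrays 14 lay below the wild-type median and 10 below the wild-type range, while S1P3-KO replicate 4 lay above the median. The pooled difference was -0.60 ± 0.12 (limma adjusted p = 0.0333), with -0.64 ± 0.13 in S1P2-KO and -0.57 ± 0.16 in S1P3-KO.

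Of 16 tested cholesterol synthesis genes 14 were lower and 2 higher, and 12 were lower in both knockouts, beside 2282 of all 6511 genes. Lower at an unadjusted p under 0.05 were 5, beside 5.09% of all probe sets. The list median was -0.21, with -0.12 in S1P2-KO and -0.29 in S1P3-KO. The 4 that followed Mvd by p were further from wild-type in S1P3-KO. Idi1, which interconverts isoprenoid building blocks, stood at -0.17 in S1P2-KO and -0.58 in S1P3-KO, and Sqle, the squalene epoxidase, at -0.10 and -0.54. Msmo1 and Nsdhl, which remove methyl groups from sterols, differed by -0.15 in S1P2-KO and by -0.36 and -0.31 in S1P3-KO. None of these 4 passed in the pooled difference (limma adjusted p from 0.22 to 0.228).

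Usp2 and Bcap29 were the other falls. Usp2, a deubiquitinase whose transcript follows the circadian clock in many tissues, ran from 2914 to 4056 in wild-type (3475 ± 333) and from 2447 to 3045 in S1P2-KO, and the S1P3-KO arrays read 2358, 2285, 3151, 2845 and 2524. All 15 knockout arrays were below the wild-type median and 11 below the wild-type range, with a pooled difference of -0.36 ± 0.06 (limma adjusted p = 0.0172). Its second probe set had the same sign, at -0.20 ± 0.06, and did not pass (limma adjusted p = 0.128). Over 18 circadian clock genes 7 were higher and 11 lower with 0 calls. Bcap29, a membrane chaperone of the endoplasmic reticulum, fell by 0.37 ± 0.08 (limma adjusted p = 0.0448), from 1737 ± 200.1 to 1401 ± 106 in S1P2-KO and 1297 ± 295 in S1P3-KO, with all 15 knockout arrays below the wild-type median.

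The next genes by p among those lower in both knockouts did not pass. Clk1, a kinase of splicing factors, differed by -0.39 ± 0.09 (limma adjusted p = 0.0509), Siah2, a ubiquitin ligase of the hypoxia response, by -0.48 ± 0.11 and the translation initiation subunit Eif3e by -0.55 ± 0.13 (limma adjusted p = 0.0721 each). On all 3 probe sets the 15 knockout arrays lay below the wild-type median. Since these genes were chosen by p on the same arrays, that count is no separate evidence.

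**Figure D2:**
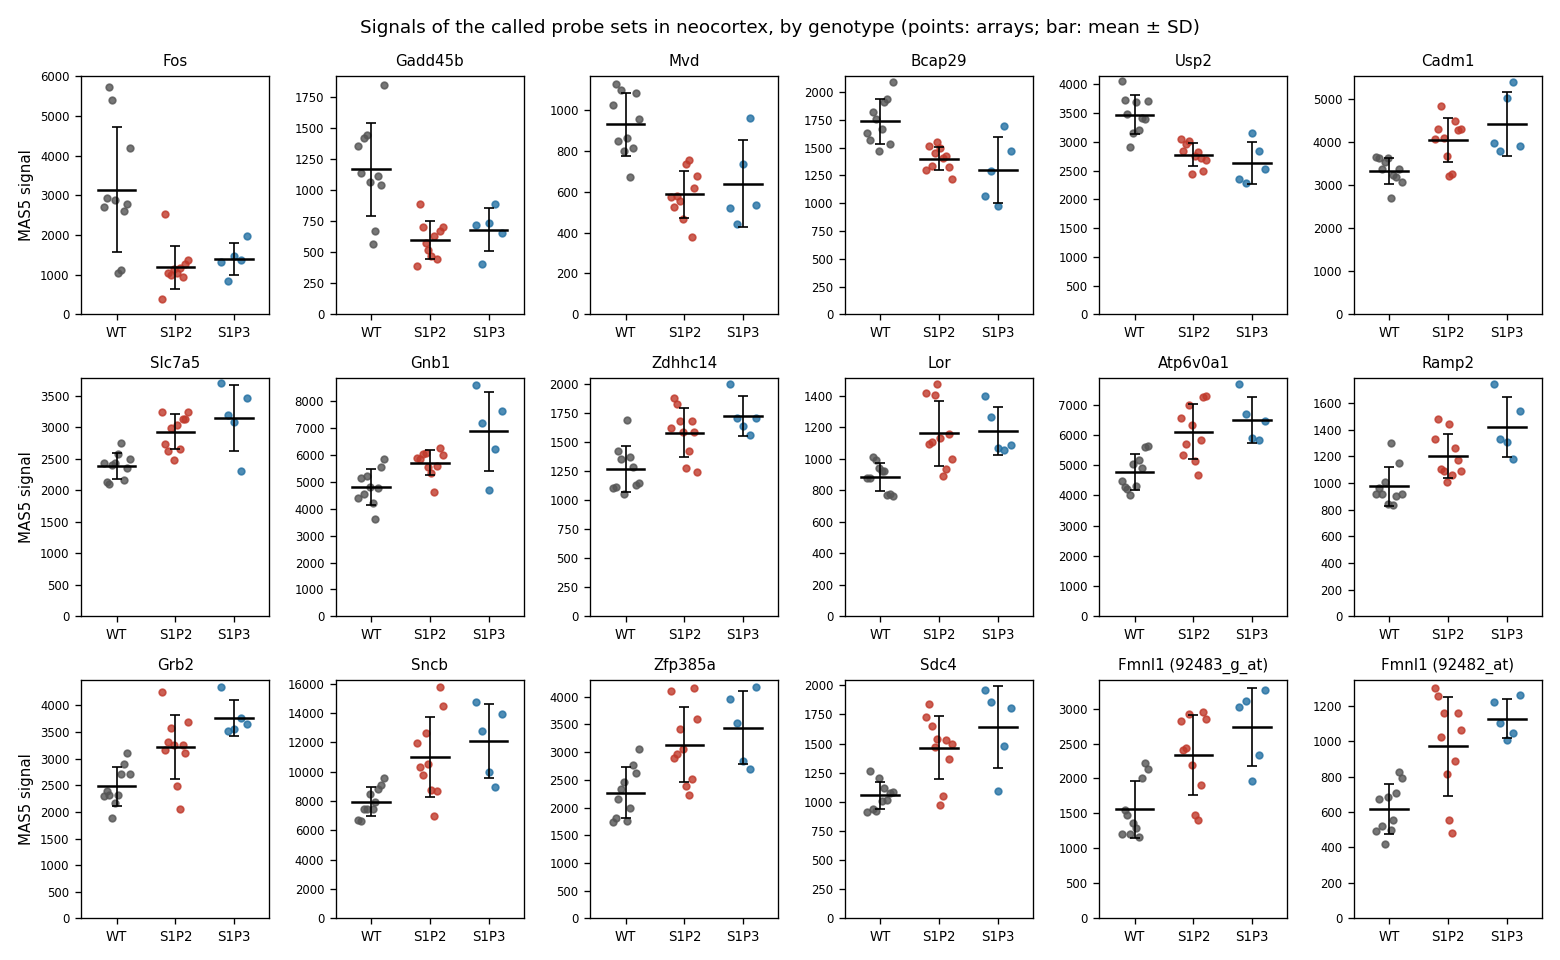
MAS5 signal (y axis, linear, from 0) of the 18 called probe sets on each neocortex array, by genotype (10 wild-type, 10 S1P2-KO, 5 S1P3-KO). Points are arrays, and bars are mean ± SD. In no panel do all 15 knockout arrays lie outside the wild-type range; the most that do are 13, for Cadm1.

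Fmnl1 showed the largest rise and was called at both of its probe sets. At the first, wild-type arrays ran from 417 to 828 (617 ± 139), S1P2-KO arrays from 482 to 1301 (970.5 ± 282), and the S1P3-KO arrays read 1222, 1101, 1008, 1046 and 1260.3. Above the wild-type range lay all 5 S1P3-KO arrays and 7 of 10 from S1P2-KO. The pooled difference was 0.73 ± 0.14 (limma adjusted p = 0.0331), a 1.66-fold rise, and the second probe set gave 0.69 ± 0.14 (limma adjusted p = 0.0333).

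Sdc4, a heparan sulfate proteoglycan that works with integrins, rose 1.45-fold, with a pooled difference of 0.53 ± 0.10 (limma adjusted p = 0.0172). Its signal ran from 912 to 1265 in wild-type (1054 ± 118) and from 974 to 1838 in S1P2-KO (1465 ± 273), and the S1P3-KO arrays read 1961, 1853, 1096, 1478 and 1804. Of the 15 knockout arrays 14 were above the wild-type median and 12 above its range. Of 33 genes of the extracellular matrix and integrins 18 were higher and 15 lower, with a median of 0.02, and Sdc4 was the only call.

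Grb2, the adaptor that links receptor tyrosine kinases to Ras, ran from 1893 to 3111 in wild-type (2483 ± 368) and from 2064 to 4258 in S1P2-KO (3217 ± 608), and the S1P3-KO arrays read 4355, 3527, 3565, 3758 and 3643. All 5 S1P3-KO arrays lay above the wild-type range, and the pooled difference was 0.48 ± 0.09 (limma adjusted p = 0.0331). Gnb1, a G protein beta subunit that serves many receptors, was 4813 ± 658 in wild-type, 5720.4 ± 479.7 in S1P2-KO and 6877 ± 1483 in S1P3-KO, with a pooled difference of 0.38 ± 0.08 (limma adjusted p = 0.0407). Its 2 other probe sets gave 0.14 and -0.04, so the rise was seen at the brightest probe set. Zdhhc14, a palmitoyltransferase, rose by 0.38 ± 0.08 (limma adjusted p = 0.0426), with all 15 knockout arrays above the wild-type median of 1217.

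Sncb, the presynaptic protein beta-synuclein, ran from 6662 to 9564 in wild-type (7967 ± 1000.1) and from 6954 to 15799 in S1P2-KO (10988 ± 2740.4), and the S1P3-KO arrays read 14732, 12809, 9949.5, 8929 and 13932. Its pooled difference was 0.51 ± 0.11 (limma adjusted p = 0.0479), called in 7 of the 25 fits with 1 array left out. Above the wild-type range lay 11 of 15 knockout arrays. Atp6v0a1, a subunit of the proton pump that acidifies synaptic vesicles and lysosomes, was 4764 ± 593 in wild-type, 6111 ± 915 in S1P2-KO and 6507 ± 758 in S1P3-KO (0.40 ± 0.08, limma adjusted p = 0.0331). Cadm1, a synaptic adhesion molecule, was 3338 ± 302, 4053 ± 519.6 and 4423 ± 740.0 in the same order (0.34 ± 0.07, limma adjusted p = 0.0479). It had the most knockout arrays outside the wild-type range, 13, yet was called in 4 of the 25 fits with 1 array left out, the fewest of the 18. Its other probe sets had the same sign, at 0.14 and 0.33. Slc7a5, the large neutral amino acid transporter of the blood-brain barrier, was 2386 ± 206 in wild-type, 2931 ± 280.2 in S1P2-KO and 3152 ± 528 in S1P3-KO (0.34 ± 0.07, limma adjusted p = 0.0407).

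Of 20 glutamate receptor and scaffold genes 15 were higher and 5 lower, with a median of 0.13. Higher in both knockouts were 12, beside 2118 of all 6511 genes. None was called, and the 5 with an unadjusted p under 0.05 were all higher, beside 5.92% of all probe sets. Nrgn, the postsynaptic calmodulin-binding protein neurogranin, was 11571 ± 2428 in wild-type, 16349 ± 4228 in S1P2-KO and 16590.1 ± 2005 in S1P3-KO; the pooled difference was 0.51 ± 0.13 (limma adjusted p = 0.0767). Grik5, a kainate receptor subunit, differed by 0.27 ± 0.09 (limma adjusted p = 0.222). The NMDA receptor subunits differed in sign, with Grin2b at 0.35, Grin2d at 0.50, Grin2a at -0.36 and Grin2c at -0.01. Of 19 synaptic vesicle genes 9 were higher and 10 lower, with a median of 0.00.

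Ramp2, which turns the calcitonin-receptor-like receptor into an adrenomedullin receptor on blood vessels, rose by 0.41 ± 0.09 (limma adjusted p = 0.0407). Its signal ran from 836 to 1299.6 in wild-type (974 ± 145) and from 1009.6 to 1477 in S1P2-KO (1203 ± 165), and the S1P3-KO arrays read 1741, 1329, 1306, 1179 and 1541. All 15 knockout arrays were above the wild-type median, and 7 were above the range. No other endothelial or pericyte marker was called: of 21 tested 13 were higher and 8 lower, with a median of 0.04, and Cldn5, a tight junction protein of vessels, differed by 0.10, Pecam1 by 0.09, Eng by -0.21 and Itm2a by -0.34. In bulk tissue, more cells of a type and more RNA per cell cannot be told apart.

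Of 2 further rises, Zfp385a, a zinc finger protein that binds RNA, was 2269 ± 454 in wild-type, 3134 ± 680.1 in S1P2-KO and 3442 ± 658 in S1P3-KO (0.53 ± 0.11, limma adjusted p = 0.0469). The probe set assigned to Lor, the loricrin of the skin's cornified layer, read 885 ± 89.5, 1161 ± 206 and 1176 ± 152 (0.39 ± 0.07, limma adjusted p = 0.0172), with 12 of 15 knockout arrays above the wild-type range. Loricrin is not a known product of neocortex, and the name of this probe set marks relaxed design rules on this array type, so the gene behind the signal is uncertain.

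**Figure D3:**
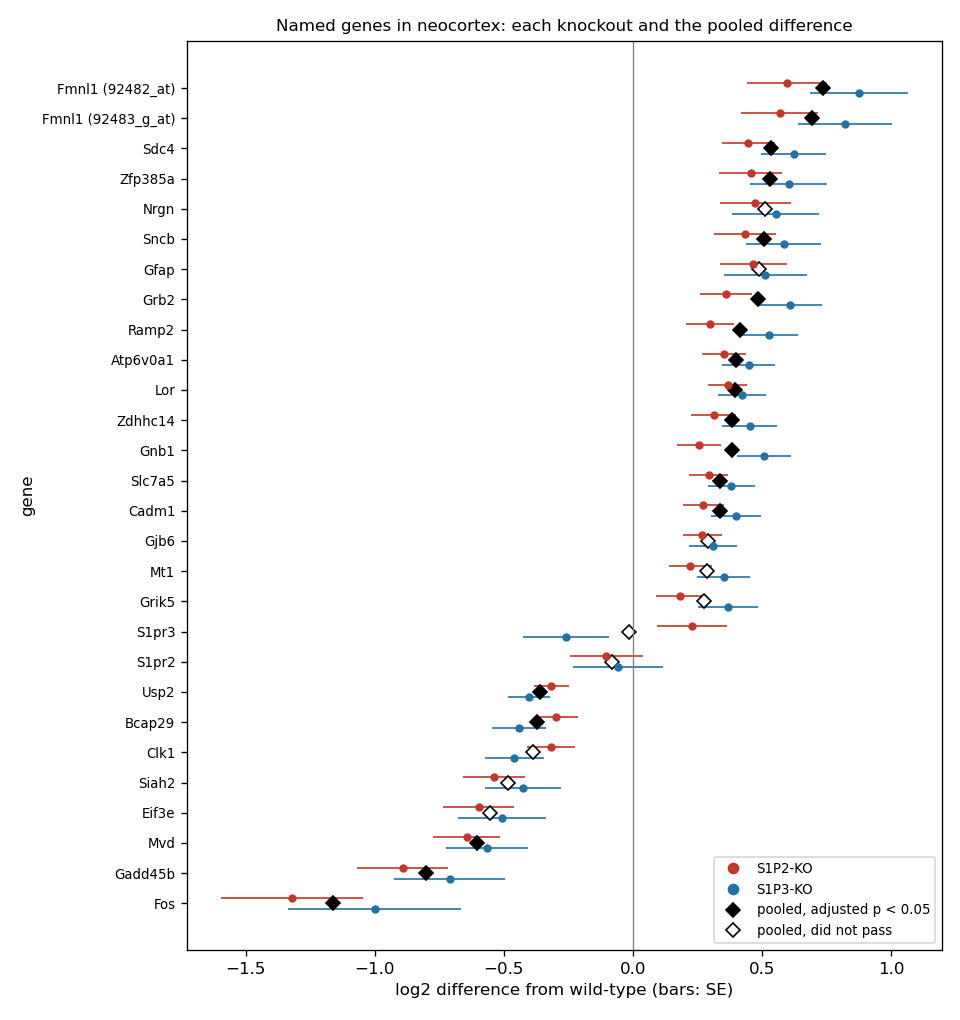
Log2 difference from wild-type (x axis, bars are SE) for each named gene (y axis), in S1P2-KO (red), S1P3-KO (blue) and pooled (diamonds, filled where the limma adjusted p is under 0.05). Both genotype estimates lie on the same side of 0 for every gene but S1pr3, at 0.23 and -0.26. They share the wild-type arrays. Clk1, Siah2 and Eif3e were drawn only from genes of shared sign, and most others were named for a small pooled p. The shared side is therefore no separate evidence.

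No astrocyte marker was called. Of 19 tested 14 were higher and 5 lower, and the median was 0.12. At an unadjusted p under 0.05, 7 were higher and 0 lower, beside 5.92% and 5.09% of all probe sets. When the probe sets of a gene were averaged, 12 were higher and 7 lower and the median was 0.04. Gfap, the astrocyte intermediate filament, ran from 658 to 1368 in wild-type (1112 ± 242) and from 1198 to 1898 in S1P2-KO (1523 ± 218), and the S1P3-KO arrays read 2529, 1502, 1369.7, 1231 and 1449. All 15 knockout arrays lay above the wild-type median and 12 above the range, and the difference of 0.49 ± 0.12 did not pass (limma adjusted p = 0.0767). Gjb6, the astrocyte gap junction protein connexin 30, differed by 0.29 ± 0.07 (limma adjusted p = 0.0754). Gfap and Gjb6 were named for their small p on these arrays, so counts of arrays are no separate evidence for them. A dimmer probe set of each gene gave smaller values. It differed by 0.27 ± 0.13 for Gfap (limma adjusted p = 0.439) and by 0.09 ± 0.11 for Gjb6 (limma adjusted p = 0.819).

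The 7 astrocyte markers with an unadjusted p under 0.05 held Gjb6, Gfap, the metallothioneins Mt1, Mt2 and Mt3, Atp1b2 and Glul, while Aqp4, the astrocyte water channel, differed by -0.40, Gja1 by -0.06, Slc1a2 by 0.16 and Aldoc by -0.09. The list's mean log2 level ran from 11.9 to 12.1 in wild-type, from 11.9 to 12.2 in S1P2-KO and from 12.0 to 12.2 in S1P3-KO, so the groups overlapped. Of 10 genes of reactive astrocytes, a list that also holds Gfap, 5 were higher and 5 lower, with a median of 0.01.

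Gjb6, Mt1 and Mt2 also stand in the list of glucocorticoid-responsive genes and metallothioneins, where 11 of 18 were higher and 7 lower, with a median of 0.16. The pooled value of that list joined unlike medians, 0.01 in S1P2-KO and 0.28 in S1P3-KO. Mt1, a zinc-binding metallothionein, was 15216 ± 1351 in wild-type, 17965 ± 3385 in S1P2-KO and 19321 ± 1329.9 in S1P3-KO (0.29 ± 0.08, limma adjusted p = 0.113). Fkbp5, a chaperone that dampens the glucocorticoid receptor, differed by 0.33 and Angptl4, a secreted lipase inhibitor, by 0.40. The members given by value here are all among the 11 higher ones, and the 7 lower ones are not shown. Among 20 endoplasmic reticulum chaperones 15 were higher and 5 lower, with a median of 0.09 and 0 calls. The protein disulfide isomerases Pdia6 and Pdia4 differed by 0.44 each and Hspa5, the chaperone BiP, by 0.24. These too were picked from the 15 higher members, so they do not stand for the whole list.

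The other 25 of the 30 lists had medians between -0.07 and 0.09. These included the markers of other cells and of tissue that a dissection can carry along. Oligodendrocyte and myelin markers had a median of 0.06, microglia and macrophage markers -0.03, choroid plexus and meninges markers -0.04, striatum markers -0.04 and neocortex layer markers 0.00. Of 4 blood and haemoglobin genes 2 were higher and 2 lower (median 0.07), with a mean log2 level of 9.29 to 10.2 in wild-type, 9.46 to 10.4 in S1P2-KO and 9.31 to 10.1 in S1P3-KO. Ttr, the transthyretin of choroid plexus, ran from 30.4 to 4755 over the neocortex arrays (median 199), and Kl, another choroid plexus gene, had a median of 20.6. The part of these cells in the called differences was not tested.

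**Figure D4:**
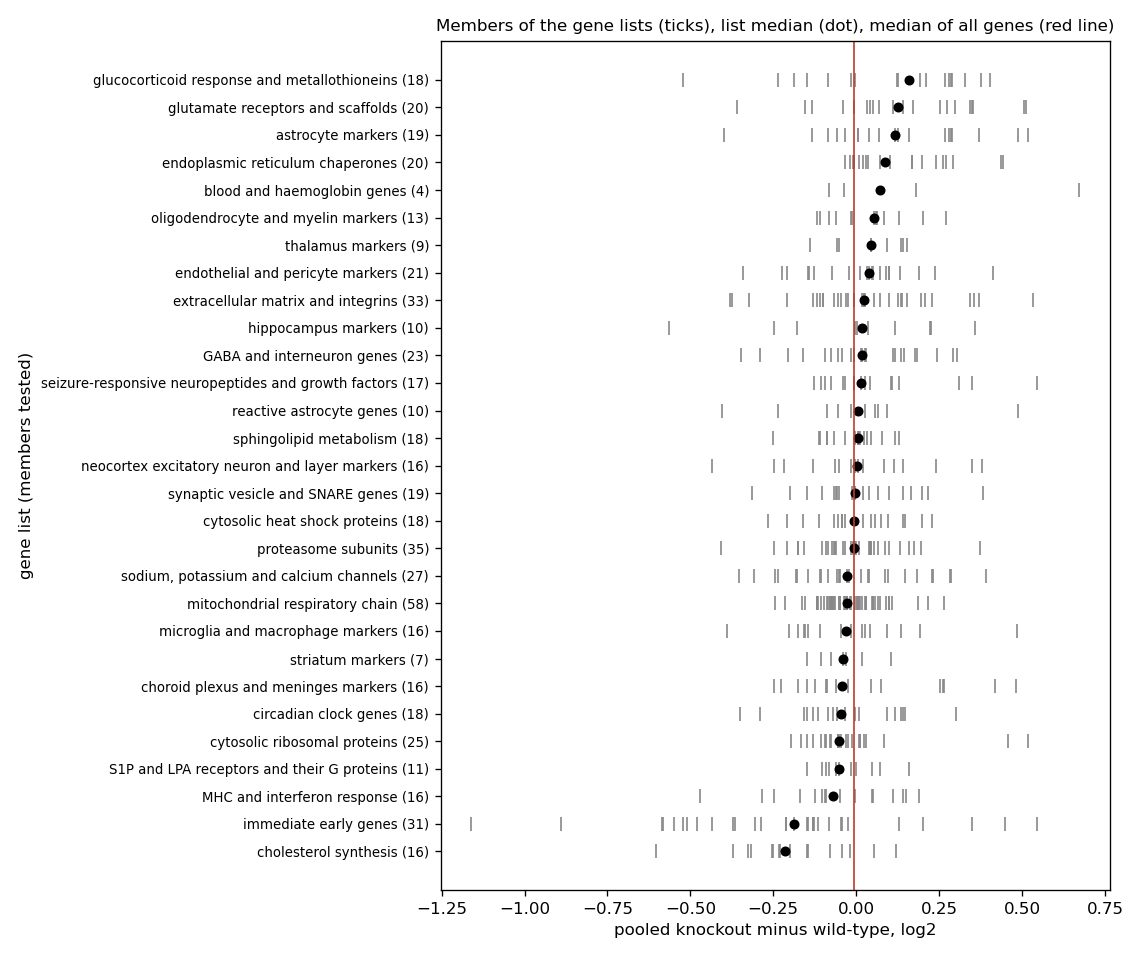
Pooled log2 difference (x axis) of each tested member (ticks) of the gene lists described (y axis, members tested in brackets), with the list median as a dot and the median over all genes, -0.01, as a red line. Cholesterol synthesis (-0.21) and immediate early genes (-0.19) lie lowest, and the glucocorticoid list (0.16), glutamate receptors (0.13) and astrocyte markers (0.12) highest.

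The knockouts were then set against each other. No probe set differed between S1P2-KO and S1P3-KO (limma called 0, or 0%, and 512 had an unadjusted p under 0.05). Among the 18 called probe sets the difference from wild-type was larger in S1P3-KO for 15 and larger in S1P2-KO for 3, Mvd, Gadd45b and Fos, and the smallest adjusted p of the difference was 0.792. The intervals still allow unequal effects. For Fos S1P2-KO minus S1P3-KO was -0.32 (95% interval -1.01 to 0.37), for Fmnl1 -0.28 (-0.67 to 0.11), for Grb2 -0.25 (-0.50 to 0.01) and for Gnb1 -0.25 (-0.47 to -0.04). For Usp2 it was 0.09 (-0.08 to 0.25) and for Lor -0.05 (-0.24 to 0.14).

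On single arrays the called differences were shared by most knockout animals but did not separate the groups. None of the 8805 tested probe sets had all 15 knockout arrays above or below all 10 wild-type arrays (0, or 0%). Of the 18 called probe sets the S1P2-KO arrays had 9 to 18 past the wild-type median in the direction of the call (median 18), the S1P3-KO arrays 16 to 18 (median 18) and the wild-type arrays themselves 5 to 13 (median 8.5). S1P2-KO replicate 7, a female, had 9 past the median and 2 outside the wild-type range, and S1P3-KO replicate 2 had all 18 outside it. These counts describe the arrays on which the probe sets were called.

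**Figure D5:**
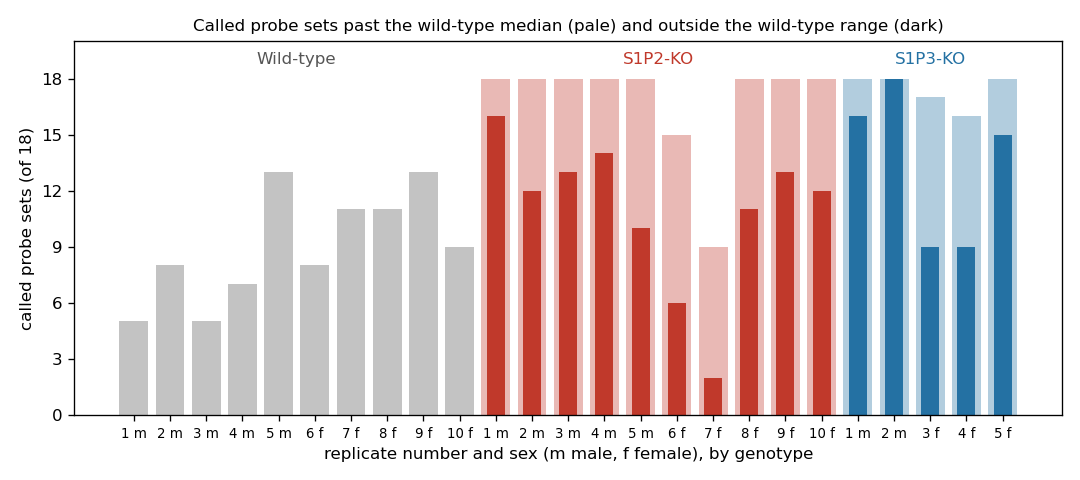
Number of the 18 called probe sets (y axis) past the wild-type median (pale) and outside the wild-type range (dark) on each neocortex array (x axis: replicate number and sex), in the direction of the call. Of the 10 S1P2-KO arrays 8 reach 18, and replicate 7 has 9, while the wild-type arrays have between 5 and 13.

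The 3' to 5' ratio had a lower median in both knockouts than in wild-type. S1P2-KO replicates 2, 3 and 8, at 0.61, 0.41 and 0.41, lay above the wild-type median. The part of RNA integrity in the called differences was not tested. With the ratio as a covariate all 18 kept their sign and 8 stayed called. Sdc4 was then at 0.58 ± 0.10, Mvd at -0.65 ± 0.13, Ramp2 at 0.45 ± 0.09 and Usp2 at -0.34 ± 0.07, all called, while Fos, at -1.05 ± 0.28, was not (limma adjusted p = 0.113). In that fit 17 probe sets were higher and 2 lower, and 11 of these were not among the 18.

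The pooled difference was also compared between the sexes. All 18 called probe sets had the same sign in females and in males, and for 16 the difference was larger in males, but none of these sex differences passed (smallest limma adjusted p = 0.16). Fos differed by -1.80 in males and -0.59 in females, Gadd45b by -1.12 and -0.53, Fmnl1 by 1.0 and 0.47, and Usp2 by -0.42 and -0.33. The male values give a weight of 0.5 to the 2 male S1P3-KO arrays. Of these, replicate 2 had the lowest correlation with other arrays and all 18 called probe sets outside the wild-type range. Over all probe sets 33 differed by sex in the pooled difference (0.375%), 23 of them higher in females and 10 lower, and for 30 the sign was opposite in the sexes. That count ran from 1 to 76 with 1 array left out. Clk1 was among the 33, at -0.08 in females and -0.73 in males, a difference of 0.65 (limma adjusted p = 0.0391).

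The 25 hippocampus arrays entered the filter on dim probe sets and the pseudocount but not the fit that called the 18. The labels do not say whether both tissues came from the same animals. All 18 had the same sign there, beside 58.9% of all probe sets, and 11 had an unadjusted p under 0.05 with that sign, beside 8.07% of all probe sets at that p. Only Sdc4 was called, at 0.54 ± 0.12 (limma adjusted p = 0.0435), among 12 calls over the table (0.136%). Fos differed by -1.08 ± 0.27, Gadd45b by -0.58 ± 0.17, Mvd by -0.47 ± 0.15, Ramp2 by 0.36 ± 0.08 and Grb2 by 0.42 ± 0.11. Usp2, at -0.12 ± 0.09, Bcap29, at -0.10 ± 0.09, and Lor, at 0.11 ± 0.10, were closer to 0.

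At their brighter tested probe sets Gfap, at 0.59 ± 0.12, and Gjb6, at 0.33 ± 0.07, were called in hippocampus (limma adjusted p = 0.0435 each). They had not passed in neocortex. No probe set differed between the tissues in its pooled difference (limma called 0, or 0%, and 328 had an unadjusted p under 0.05), and for the 18 the smallest adjusted p of that difference was 0.994. Without the 3 hippocampus arrays of high 3' to 5' ratio, Sdc4 differed by 0.67 ± 0.10 (limma adjusted p = 0.000443) and was the single call there, while Gfap, at 0.49 ± 0.12, and Gjb6, at 0.33 ± 0.08, did not pass (limma adjusted p = 0.0951 each).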

How the data were processed

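The authors deposited 1 intensity per probe set and array for 12488 probe sets of 50 arrays. They are MAS5 signals per the submitters' processing notes, whose version is not given in the sources used here. The MAS5 method subtracts mismatch probes, so that dim signals are noisy. Per the labels' protocols, 12 µg of total RNA extracted with TRIzol was labelled with biotin. The deposited signals were already scaled (trimmed mean 1000.57 to 1000.66 on every neocortex array after removal of 2% at either end) and were not scaled again. Detection calls were not used here. No array was a copy of another (rank correlations up to 0.967). The number of arrays limits the precision, as arrays have no read depth.

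Gene names came from the platform annotation: 10855 had 1 gene symbol, 396 several and 1237 none, and 10839 matched the RefSeq table of GRCm38.p6. The values analysed are log2(signal + 30.7), 30.7 being the 10th percentile of all signals. After removal of 66 control probe sets, those with a mean signal over the 50 arrays above the 30th percentile, 132.6, were tested. The limma package (3.58.1, R 4.3.3) fitted a mean per genotype with sex as covariate, by lmFit and trended eBayes, after the script was tested on simulated data. Sex differences came from a model with a mean for each genotype and sex, and hippocampus values from 1 model of all 50 arrays.

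The members and the 30 gene lists were chosen with earlier results of these data known. Lists are described by counts and medians, with no test, and 1 of them is not reported here; in a list a gene stands by its brightest probe set. The named genes are S1pr2, S1pr3, up to 12 called probe sets in each direction (filled to 8 by the smallest p among genes with the same sign in both knockouts), up to 3 called members of each list and, for lists with a median beyond 0.1 and no call, the 2 members of smallest p. All 13 called higher probe sets are named, 1 over the limit of 12, since Fmnl1 holds 2 of them. Other list members and marker genes were picked after their values were seen, to show how a list varies. Alternatives covered the pseudocount, filter, normalization, covariates, array weights, genotype weights, trend, replicate block and each array left out. Filters on mean log2 signal or on neocortex alone, the removal of the 3 arrays of lowest correlation, and the alternatives for sex and hippocampus were added after the data were seen. Replicate numbers were not taken to pair the samples: of 20 same-numbered pairs 1 had a correlation of deviations above 0.1 (-0.09 to 0.18). Deviations were taken from the mean of each genotype and sex, so the 2 male S1P3-KO arrays mirror each other. The female S1P3-KO arrays carry numbers that belong to males in the other groups. This check therefore cannot tell whether the samples were paired.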

Additional observations from a re-analysis of the deposited data

Results flagged for a closer look

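On 4 of 84 groups of arrays examined for the named genes, 1 array lay far from the rest. The cutoffs used are meant to set apart about 1 in 20 groups of independent, normally spread values. That rate was not computed from these arrays, and most of the genes were chosen by p on them. Grb2 read 4355 on S1P3-KO replicate 1, against 3758 on the next array of its group. Gfap read 2529 on the same array, against 1502 on the next. Fos read 2539 on S1P2-KO replicate 2, against 1359 on the next, which was still below the wild-type median. Siah2 read 1017 on S1P3-KO replicate 4, against 671 on the next.

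The pooled difference of Clk1 differed between the sexes by 0.65, with -0.08 in females and -0.73 in males (limma adjusted p = 0.0391). With 1 array left out this difference ran from 0.57 to 0.72 and passed in 14 of 25 fits. It was among 33 probe sets whose pooled difference differed by sex. Left-out arrays gave 1 to 76 such probe sets, with under 10 in 13 of 25 fits.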

How the results depend on the processing

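All 18 called differences kept their sign in 40 of 40 fits, the main one included, as their choice on these same arrays makes likely. Usp2 and Sdc4 were called in all 11 planned settings other than a left-out array. The counts moved more. The number called was 15 and 19 with pseudocounts of 1 and 100, 22 with a filter at the 50th percentile, 14 after quantile normalization and 18 without the sex covariate. Without a filter on dim probe sets it was 7 (6 higher, 1 lower), with array weights 35 (24 higher, 11 lower), with all 15 knockout arrays weighted equally 7 (3 higher, 4 lower), without a mean trend 3 (2 higher, 1 lower), and without the 3 arrays of lowest correlation 0 (0 higher, 0 lower; 976 at an unadjusted p under 0.05 by limma). When the fit also held the 3' to 5' ratio, the count was 19 (17 higher, 2 lower), and 1 probe set differed between S1P2-KO and S1P3-KO. With 1 array left out the count ran from 0 to 35, the count higher from 0 to 28, the count lower from 0 to 10, and the count between the knockouts from 0 to 1.

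With the replicate number as a block the count was 78 (27 higher, 51 lower), 11 of the 18 remained called, and 47 probe sets differed between S1P2-KO and S1P3-KO. Only 3 of 20 pairs correlated best within their own number, so the numbers were not taken to pair the animals. S1pr2 turned from -0.08 to 0.061 and S1pr3 from -0.02 to 0.12 under the block. S1pr3 was 0.067 with knockout arrays weighted equally and -0.11 to 0.044 with 1 array left out.

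The count of probe sets that differed by sex was 7 without a filter, 60 with the filter at the 50th percentile, 1 without a mean trend, 13 without the 3 arrays of lowest correlation, and 1 to 76 with 1 array left out. The count in hippocampus was 0 without a filter and 1 once its 3 arrays with a high 3' to 5' ratio were dropped. The cause of these shifts was not tested. The median SE of a pooled difference was 0.12 and the smallest called difference 0.34, so smaller shifts were rarely detectable with these arrays. Averaging the probe sets of a gene kept the sign of 27 of 30 list medians.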
